A study of Mus musculus with 48 samples.

Results

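The genes described here are Cidea, Cideb and Cidec, which make up the CIDE family of lipid droplet proteins, and Clstn3. These 4 genes were taken by symbol from 29221 genes counted in the livers of 48 mice, and their levels were followed over the 10 groups of the study. They were chosen from earlier results of these same libraries, namely their levels over the groups and the difference between mice with and without Cre. Differences between the labelled genotypes are therefore given for them as a description without a test. Tests are given for diet, for the difference in diet response between the sexes, and for variation among mice of the same group. Because the levels of these libraries were known when the genes were chosen, those p-values are not independent support for the choice.

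CIDE proteins sit where lipid droplets touch, and help lipid pass from the smaller droplet into the larger one, so that cells with much of them hold few, large droplets. Cidec (also called FSP27) and Cidea are genes of white and brown fat that hepatocytes switch on in fatty liver, and both are known targets of the nuclear receptor PPARG. Cideb is the family member of normal liver, where it also takes part in loading lipid onto very low density lipoprotein. Clstn3 encodes calsyntenin-3, a membrane protein first studied at synapses. The 3' part of its locus also gives a short product of fat cells, CLSTN3B, which sits on lipid droplets and is known to limit CIDE-driven fusion.

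All mice carried floxed Pparg alleles. After 16 weeks on diet they received an adeno-associated virus, AAV8-TBG-Cre or AAV8-TBG-null. The first carries Cre recombinase behind a hepatocyte promoter and defines the PPARgamma knockout groups, and the second has no Cre and defines the controls. Males ate a high fat diet (HF) for 34 weeks, or the HF diet for 18 weeks and then a diet rich in fat with added cholesterol and fructose (HFCF) for 16 weeks, and each of their 4 groups had 6 livers. Females had the same diets and also a low fat diet (LF) for 34 weeks, and each of their 6 groups had 4 livers. The mice were adult, and their exact age is not given in the sources used here. The TBG promoter is active in hepatocytes, so other liver cells keep the gene, and RNA came from whole liver.

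Pparg itself was not lower in any group given Cre. It was higher in HFCF males (log2 0.81, edgeR adjusted p = 0.000805) and HFCF females (log2 0.97, edgeR adjusted p = 0.0422). On the other diets its edgeR adjusted p was above 0.05. In HF males its mean was 34.3 ± 3.95 CPM (read counts scaled by library size to the usual counts-per-million unit, SD, n = 6) in controls and 41.2 ± 14.1 CPM with Cre. In HFCF males it was 32.0 ± 5.59 and 55.9 ± 6.05 CPM, in HFCF females (n = 4) 23.7 ± 1.34 and 46.0 ± 9.20 CPM, in HF females 18.6 ± 4.19 and 28.8 ± 8.13 CPM, and in LF females 10.5 ± 3.29 and 15.6 ± 5.48 CPM. The counts are per whole gene and do not separate the floxed exons. They therefore do not show the deletion, and the groups are called labelled knockouts throughout.

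Libraries held 15338239 to 22072884 reads on genes. The hepatocyte marker Alb was present in every library, while the fat cell marker Adipoq had 5 reads in all 48 libraries together and none in any male. Of 11 fat cell markers on the list, 9 were in the tables, and their summed level ran from 16.0 to 55.5 CPM, mostly Fabp4 and Adrb3. Among female libraries, 2 stood apart in Cidec, and the main results that rest on them are given with and without them. Replicate 1 of the HF control females had 56.4 CPM against 6.25 to 14.1 CPM in the other 3. Replicate 1 of the HFCF labelled knockouts had 4.19 CPM against 12.3 to 16.1 CPM. A rule on the gap between an extreme library and its neighbour, given below, flagged the HF control but not this HFCF library. It also flagged HF labelled knockout replicate 2 (6.18 CPM, the next 3.09 CPM). The HFCF library had the fewest reads of all 48. Its summed hepatocyte markers were 119723 CPM, against 65474.8 to 82752.2 CPM in the rest of its group. The part of this in its Cidec level was not tested. The series text and the sample label also give different animal numbers for replicate 2 of the LF labelled knockouts.

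PPARG binds DNA with a partner receptor, RXR, at direct repeats spaced by 1 base (DR1). The levels of Cidec and Clstn3 moved together over the groups, and were known when these genes were chosen. Because of that shared movement, their promoters are shown. Both are from RefSeq on GRCm38.p6, are read 5′ to 3′ on the minus strand, and cover the 250 bases before the first listed start, chr6:113435761-113436010 and chr6:124464785-124465034. Capitals mark the stretch closest to the DR1 sequence, AGGTCA and AGGTCA with any base (N) between them, on either strand, in a window of 250 bases before to 50 after the start.
Cidec: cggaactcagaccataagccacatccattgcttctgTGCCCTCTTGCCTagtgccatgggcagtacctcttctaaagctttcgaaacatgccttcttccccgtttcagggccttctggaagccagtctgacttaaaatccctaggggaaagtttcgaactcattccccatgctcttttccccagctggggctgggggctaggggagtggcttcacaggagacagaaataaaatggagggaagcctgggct
Clstn3: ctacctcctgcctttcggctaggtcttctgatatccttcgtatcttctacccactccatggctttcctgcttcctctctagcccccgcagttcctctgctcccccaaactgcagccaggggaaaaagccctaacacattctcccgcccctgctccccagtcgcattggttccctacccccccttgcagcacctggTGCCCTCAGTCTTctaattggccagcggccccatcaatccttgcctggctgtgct
The marked Cidec stretch lies at -214 to -202 from the start. Read on the other strand it is AGGCAAGAGGGCA, which differs from the DR1 sequence at 3 of 12 fixed letters, a match as good as that found in 24.7% of 32544 promoter windows. The marked Clstn3 stretch, at -55 to -43, differs at 4 letters, and 79.8% of windows hold a match at least that good. Cideb also differed at 3, in a stretch that spans its start, and the second listed starts of Cidec and Clstn3 each differed at 4. None of these 5 windows held an exact AGGTCA, which 16.2% of windows did. Cidea was not in the promoter table used here.

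On the GRCm38 build, Cidec (ENSMUSG00000030278) lies on the minus strand of chromosome 6 from 113424634 to 113435760. Clstn3 (ENSMUSG00000008153) is on the same strand of chromosome 6, from 124430759 to 124464794. No other gene in the tables overlaps either of them. Cideb (ENSMUSG00000022219) runs from 55754050 to 55758458 on the minus strand of chromosome 14 and shares 1451 bases with Nop9 on the other strand. Cidea (ENSMUSG00000024526), on the plus strand of chromosome 18 from 67343564 to 67367794, shares 540 bases with the antisense transcript B430212C06Rik. The libraries did not keep strand, so reads in the shared stretches cannot be assigned with certainty. Counts are per gene, so CLSTN3B is not told apart from full-length calsyntenin-3.

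Cidec was much lower in male labelled knockouts than in male controls. In HF males its level ran from 114 to 157 CPM in controls (median 138) and from 4.48 to 6.42 CPM in labelled knockouts (median 4.99). These libraries did not overlap, and the difference was 25.7-fold (log2 -4.68, SE 0.11). In HFCF males it ran from 152 to 171 CPM in controls (median 157) and from 11.3 to 43.2 CPM in labelled knockouts (median 26.2). These did not overlap either, and the level was 5.94-fold lower with Cre (log2 -2.57, SE 0.24).

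**Figure D1:**
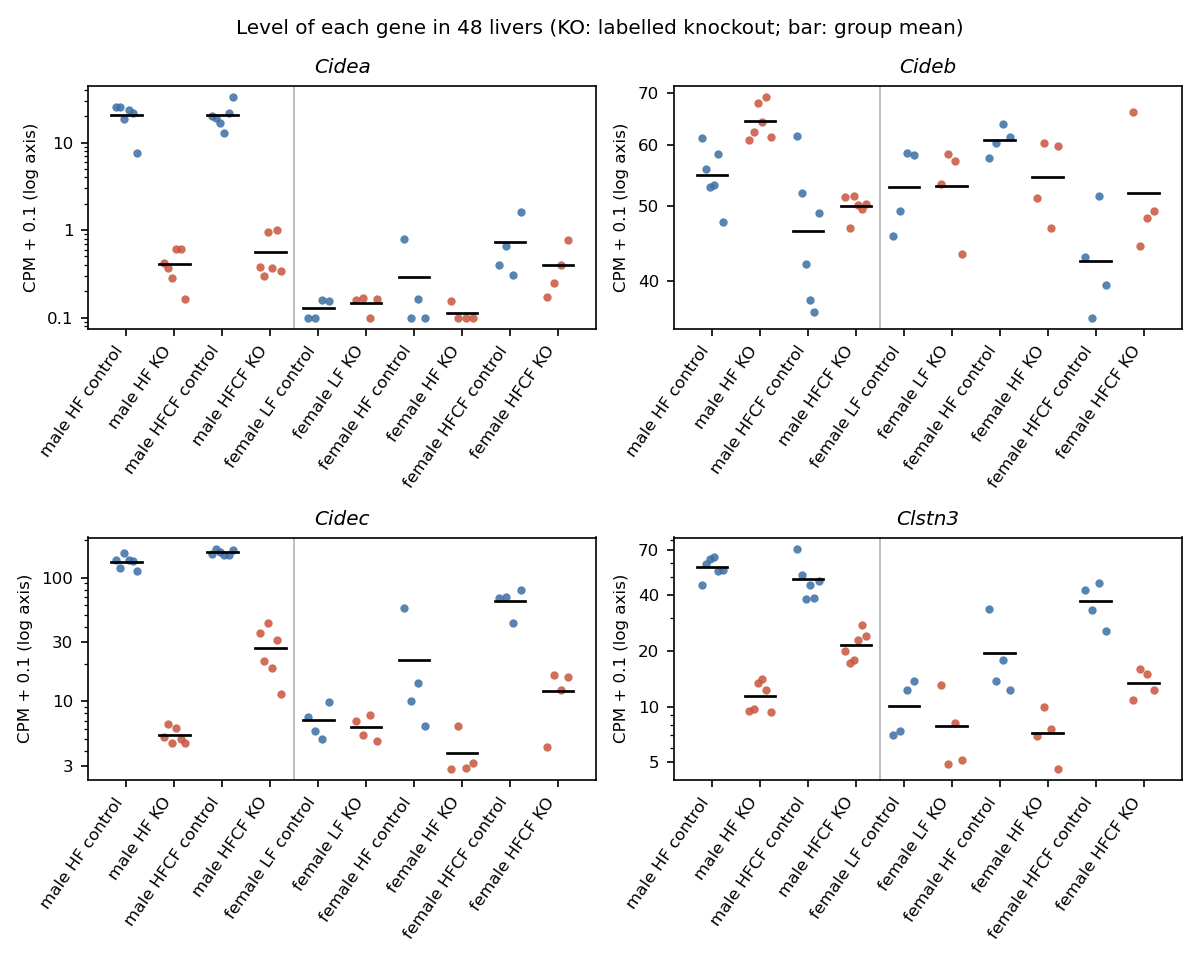
Level of each of the 4 genes in each of 48 livers, as CPM + 0.1 on log axes with a different range per panel, by sex, diet and labelled genotype (blue control, red labelled knockout; points are livers, bars are group means). Cidea is near 20 CPM only in male controls, and Cideb stays between 35.8 and 69.0 CPM. Cidec and Clstn3 do not overlap between the genotypes on any diet but LF. The share of all genes without overlap was computed between genotypes in males only.

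Female controls had less Cidec than male controls on the same diet, and in each female genotype the mean was highest on HFCF. LF controls had 7.42, 5.62, 4.91 and 9.86 CPM and LF labelled knockouts 6.90, 5.21, 7.65 and 4.74 CPM, so these 2 groups overlapped (log2 -0.18, SE 0.24). HF controls had 56.4, 9.97, 14.1 and 6.25 CPM, and HF labelled knockouts 2.74, 6.18, 2.79 and 3.09 CPM. The lowest control was barely above the highest labelled knockout, and the log2 difference of -2.56 (SE 0.67) became -1.45 without HF control replicate 1. On HFCF the 4 controls had 67.7, 69.0, 43.1 and 79.0 CPM and the 4 labelled knockouts 4.19, 16.1, 12.3 and 15.6 CPM. These did not overlap, at a log2 difference of -2.39 (SE 0.33), and of -2.13 without HFCF labelled knockout replicate 1. The share of all genes without overlap was not computed between female genotypes.

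Clstn3 had a smaller range in the same order of genotypes. HF control males had 45.6 to 64.0 CPM (median 56.9) and HF labelled knockouts 9.28 to 14.0 CPM (median 10.9), a log2 difference of -2.33 (SE 0.12). HFCF control males had 38.3 to 71.5 CPM (median 46.5) and labelled knockouts 17.2 to 27.6 CPM (median 21.3), at -1.18 (SE 0.15). In neither diet did the male libraries of the 2 genotypes overlap.

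In females, Clstn3 was 6.95, 7.26, 12.2 and 13.6 CPM in LF controls and 13.0, 4.81, 8.08 and 5.04 CPM in LF labelled knockouts, which overlapped (log2 -0.36, SE 0.33). HF controls had 33.8, 13.7, 17.7 and 12.2 CPM against 6.83, 9.80, 7.45 and 4.50 CPM in labelled knockouts (log2 -1.44, SE 0.34, and -1.02 without HF control replicate 1). HFCF controls had 42.7, 33.1, 46.6 and 25.7 CPM against 10.8, 15.8, 14.8 and 12.2 CPM (log2 -1.44, SE 0.19). On both of these diets every control was above every labelled knockout. The share of all genes separated in this way was not computed between female genotypes, so nothing is read from it. The high Clstn3 value of HF controls belonged to the replicate that was also high in Cidec.

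Cidea, the brown fat member, was close to absent outside male controls. In HF males it ran from 7.50 to 25.4 CPM in controls (median 22.7) and from 0.0649 to 0.516 CPM in labelled knockouts, the latter on 30 reads in all. In HFCF males it ran from 12.7 to 33.1 CPM in controls (median 19.5) and from 0.198 to 0.913 CPM in labelled knockouts, on 54 reads. The log2 differences were -5.99 (SE 0.36) and -5.44 (SE 0.33), and the libraries did not overlap. The antisense transcript B430212C06Rik went with it, at 3.22 ± 0.823 and 0.298 ± 0.105 CPM in HF males and 3.11 ± 0.905 and 0.540 ± 0.230 CPM in HFCF males (n = 6 each). How many of its reads come from the shared bases was not tested.

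Among females, Cidea reached at most 28 reads in a library. LF controls had 0, 0, 1 and 1 reads and LF labelled knockouts 1, 1, 0 and 1. HF controls had 12, 0, 1 and 0 reads, the 12 in replicate 1, and HF labelled knockouts 1, 0, 0 and 0. HFCF controls had 6, 11, 4 and 28 reads and HFCF labelled knockouts 1, 3, 6 and 13. A count of 0 allows up to 0.141 to 0.189 CPM in these libraries, by counting error alone. Cidea was too low to enter any test between female groups or between male labelled knockouts.

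Cideb, the member of normal liver, differed least. HF males had 47.5 to 61.1 CPM in controls (median 54.5) and 60.8 to 69.0 CPM in labelled knockouts (median 63.1). In HFCF males the ranges were 36.4 to 61.4 and 46.8 to 51.4 CPM. The log2 differences were 0.22 (SE 0.06) and 0.11 (SE 0.10), and the libraries overlapped on both diets. In females the difference was 0.01 (SE 0.12) on LF, -0.16 (SE 0.09) on HF and 0.31 (SE 0.15) on HFCF, again with overlap. Nop9, its overlapping neighbour, stayed between -0.03 and 0.17 in the 5 genotype differences.

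Thus 3 of the 4 genes had non-overlapping libraries of the 2 genotypes in each male diet, as did 7.95% of 14041 genes tested in HF males and 2.22% of 14685 in HFCF males. For scale, edgeR called 18.5% of those genes between the genotypes in HF males and 2.21% in HFCF males, a call being an adjusted p under 0.05. It called 0.0534% in HFCF females. In HF females 0 genes were called (1135 at an unadjusted p under 0.05), and in LF females 0 (355 at an unadjusted p under 0.05). DESeq2 called 61 and 8 genes in these 2, and gave no adjusted p for 7943 and 1676. Since the genes were chosen with these differences known, nothing is read from their count.

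In HF males, other cell markers moved with the labelled genotype. All 8 hepatocyte markers and all 3 blood markers were called higher in labelled knockouts, a comparison where 8.57% of all genes were called higher, with summed hepatocyte marker levels of 63499.6 to 88464 CPM in controls and 95214 to 109530.0 CPM with Cre. Of the other cell types, 3 of 6 stellate cell markers (median log2 -0.21) and 1 of 5 endothelial markers (median -0.29) were called lower, beside 9.88% of all genes. Among macrophage markers 1 of 6 was called higher. In HFCF males, with 2.21% of all genes called, 1 of 6 macrophage markers was called higher. There 0 of 8 hepatocyte and 0 of 3 blood markers were called by edgeR. The part of such shifts in the differences was not tested. In whole liver, fewer cells of a type and less RNA per cell cannot be told apart. Of 4 fat cell markers tested, 1 was called lower in the labelled knockouts of each male diet (list median log2 -0.16 on HF and -0.12 on HFCF). This was Cfd (adipsin), at log2 -6.79 (SE 0.58) and -6.38 (SE 0.61). Its mean in these labelled knockouts was only 0.031 CPM on HF and 0.10 CPM on HFCF, so the size of its change is uncertain.

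Ordered by mean, Cidec was highest in HFCF control males (160 ± 8.20 CPM) and HF control males (134 ± 15.7 CPM), which overlapped. Every library of these 2 groups was above every library of the next group, HFCF control females (64.7 ± 15.2 CPM). From there down to HF labelled knockout females (3.70 ± 1.66 CPM), each group overlapped its neighbour. Cidea had the same single break, between HF control males (20.4 ± 6.79 CPM) and HFCF control females (0.638 ± 0.589 CPM). Clstn3 ran from 56.7 ± 6.86 CPM in HF control males to 7.14 ± 2.18 CPM in HF labelled knockout females, and Cideb from 64.2 ± 3.45 CPM in HF labelled knockout males to 42.4 ± 6.64 CPM in HFCF control females, with overlap at every step. Sex and any difference in handling between male and female libraries cannot be told apart, and levels were not tested between the sexes.

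Scaled by gene length, the family changed in make-up. In HF control males Cidec made up 57.2% ± 4.01 of the summed CPM per kb of the 3 CIDE genes, Cideb 29.3% ± 2.15 and Cidea 13.6% ± 4.00 (SD, n = 6). In HF labelled knockout males the shares were 6.12% ± 0.997, 93.3% ± 1.12 and 0.571% ± 0.314. The summed level was 126 ± 14.1 CPM per kb in the first group and 46.2 ± 2.31 in the second, while the Cideb level was 36.8 ± 3.18 and 43.1 ± 2.32 CPM per kb.

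The Cidec share also varied over the other groups. It was 64.1% ± 4.18 in HFCF control males and 28.8% ± 9.02 in HFCF labelled knockout males. Among females (n = 4) it was 9.55% ± 2.69 in LF controls, 19.5% ± 16.4 in HF controls and 54.1% ± 9.60 in HFCF controls, against 8.46% ± 1.39, 5.07% ± 1.71 and 16.1% ± 7.84 in the labelled knockouts. Without the libraries that stood apart, a choice made after seeing the data, it was 11.4% ± 3.74 in HF controls and 19.8% ± 2.85 in HFCF labelled knockouts (n = 3 each). Cideb was thus the leading CIDE transcript in 7 of the 10 groups. The exceptions were both male control groups and the HFCF control females, where Cidec led in mean share. Clstn3 had 11.4 ± 1.38 CPM per kb in HF control males, below all 3 CIDE genes there, and 1.44 ± 0.439 in HF labelled knockout females. All its reads were divided by 4968 bases, while the shorter CLSTN3B is not told apart. Its place below the CIDE genes may therefore not hold for each product.

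**Figure D2:**
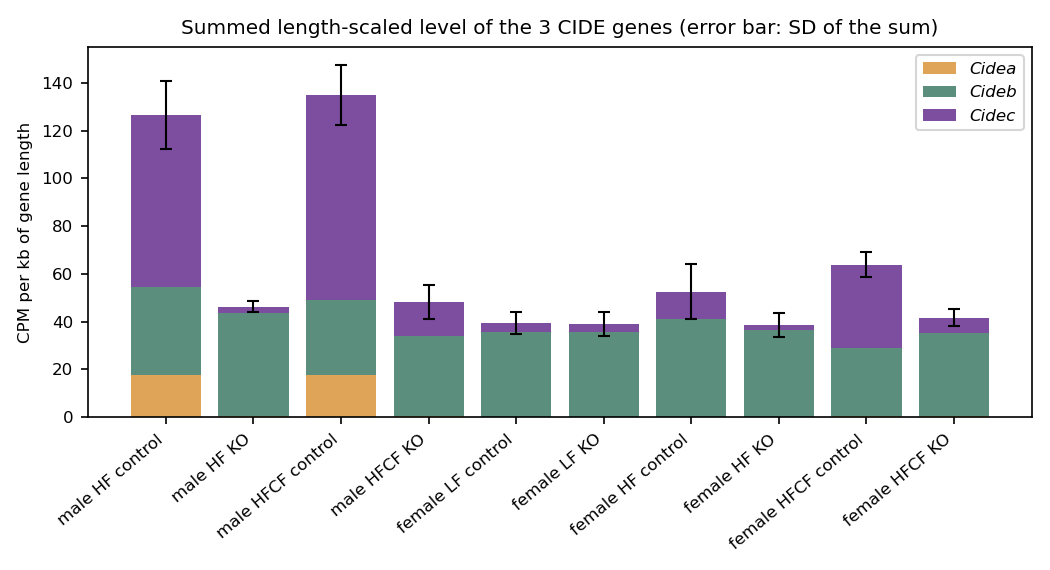
Stacked mean levels of Cidea, Cideb and Cidec in CPM per kb of gene length for the 10 groups, with the SD of their sum (n = 6 in male and 4 in female groups). The sum is above 120 in both male control groups and is mostly Cideb in the labelled knockouts and in LF and HF females.

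In male labelled knockouts, Cidec and Clstn3 were higher and Cideb lower on HFCF than on HF. Cidec rose 5.19-fold, from 5.24 ± 0.797 to 26.8 ± 11.8 CPM (log2 2.38, SE 0.27, edgeR adjusted p = 8.92e-06). Clstn3 rose 1.92-fold, from 11.3 ± 2.14 to 21.5 ± 3.98 CPM (log2 0.94, SE 0.14, adjusted p = 8.09e-05). Cideb fell by 0.35 on the log2 scale, from 64.2 ± 3.45 to 49.9 ± 1.68 CPM (adjusted p = 8.89e-05). All 3 had non-overlapping libraries, as did 19.1% of 14314 genes, in a comparison where edgeR called 41.7%. Cidea had 30 reads in the HF and 54 in the HFCF libraries, too few to be tested.

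In male controls the same change of diet moved little. Cidec rose 1.22-fold, from 134 to 160 CPM (log2 0.28, SE 0.08, edgeR adjusted p = 0.0154), where 22.3% of 14475 genes were called. With all male groups in 1 fit its adjusted p was 0.271. Clstn3 was at -0.20 (SE 0.13, adjusted p = 0.291), Cideb at -0.22 (SE 0.11, adjusted p = 0.159) and Cidea at 0.04 (SE 0.25, adjusted p = 0.938). Without HFCF control replicate 1, the highest for both Cideb and Clstn3, these 2 passed, at -0.31 (adjusted p = 0.0135) and -0.33 (adjusted p = 0.0114).

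In control females the step from LF to HFCF went with the widest rise of both genes among the 8 diet comparisons. Cidec rose 9.21-fold, from 6.96 ± 2.21 to 64.7 ± 15.2 CPM (log2 3.20, SE 0.24, edgeR adjusted p = 0.000161). Clstn3 rose 3.69-fold, from 9.99 ± 3.38 to 37.0 ± 9.45 CPM (log2 1.88, SE 0.25, adjusted p = 0.000778). Neither overlapped between diets, as was so for 33.9% of the 14755 genes tested, and edgeR called 35.2% of those tested. Pparg rose as well, from 10.5 to 23.7 CPM (log2 1.17, SE 0.18, adjusted p = 0.00148). Cideb was at -0.32 (SE 0.12, adjusted p = 0.0605), and passed at -0.38 without LF control replicate 1 (adjusted p = 0.032) and at -0.40 without HFCF control replicate 3 (adjusted p = 0.0248).

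The step from LF to HF in control females gave no call among the 3 genes tested, where 0.696% of 14216 genes were called. Cidec was at log2 1.66 (SE 0.62, edgeR adjusted p = 0.231), and at 0.55 (adjusted p = 0.366) without HF control replicate 1. Clstn3 was at 0.97 (SE 0.34, adjusted p = 0.210), and at 0.55 (adjusted p = 0.277) without that library, and Cideb at 0.21 (SE 0.09, adjusted p = 0.303). In the labelled knockouts, where 0.155% of genes were called, Cidec was at -0.72 (SE 0.29, adjusted p = 0.317), Clstn3 at -0.10 (SE 0.33, adjusted p = 0.923) and Cideb at 0.05 (SE 0.12, adjusted p = 0.898).

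From HF to HFCF, control females had 30.8% of 14701 genes called. Cideb fell by 0.51 on the log2 scale (SE 0.11, edgeR adjusted p = 0.0105), from 60.7 ± 2.55 to 42.4 ± 6.64 CPM, with no overlap (as for 29.4% of genes tested). Clstn3 rose by 0.94 (SE 0.32, adjusted p = 0.0484), a call lost in each of the 8 fits leaving out 1 library except that without HF control replicate 1, at adjusted p of 0.0524 to 0.12. Cidec was at 1.58 (SE 0.59, adjusted p = 0.0663). Without HF control replicate 1 both were higher on HFCF, Cidec at 2.69 (adjusted p = 0.000123) and Clstn3 at 1.36 (adjusted p = 0.000773).

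Female labelled knockouts also had more Cidec and Clstn3 on HFCF than on HF, with 14.5% of 14650 genes called. Cidec rose by 1.73 (SE 0.41, edgeR adjusted p = 0.0224) and Clstn3 by 0.91 (SE 0.23, adjusted p = 0.0258), and without HFCF replicate 1 they were at 2.02 (adjusted p = 0.00116) and 1.02 (adjusted p = 0.00933). Both calls were lost in 5 of 8 fits without 1 library, namely HF replicates 1 and 4 and HFCF replicates 2, 3 and 4, with adjusted p of 0.0564 to 0.07 for Cidec and 0.0521 to 0.0794 for Clstn3. Cideb was at -0.07 (SE 0.13, adjusted p = 0.782). Against LF, with 12% of 14614 genes called, Cidec was at 1.03 (SE 0.35, adjusted p = 0.0788), Clstn3 at 0.83 (SE 0.29, adjusted p = 0.0824) and Cideb at -0.00 (SE 0.14, adjusted p = 0.994). Leaving out HFCF replicate 1 brought Cidec to 1.28 (adjusted p = 0.00161), and leaving out LF replicate 1 brought Clstn3 to 1.19 (adjusted p = 0.0118). The comparisons with LF and HF share their HFCF libraries.

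**Figure D3:**
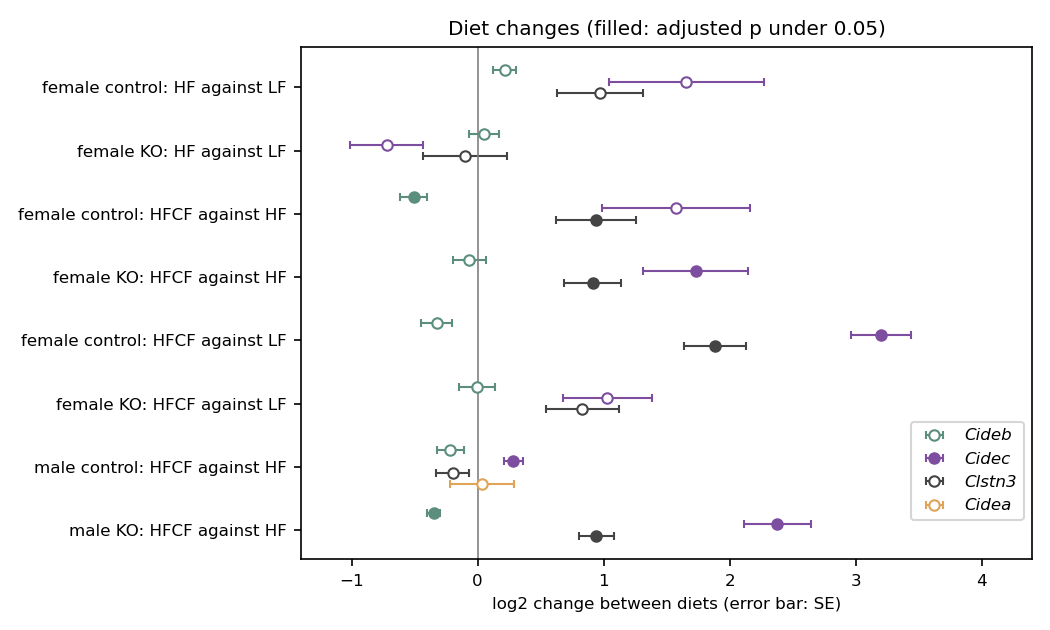
Log2 change between diets with its SE for each tested gene in 8 comparisons (filled points: edgeR adjusted p under 0.05; Cidea was tested in male controls only). Cidec and Clstn3 lie right of 0 in all HFCF comparisons except Clstn3 in male controls, and Cideb lies at or left of 0 in each of them.

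Markers of cell types moved with the HFCF diet too. All 4 bile duct markers were called higher in each of the 6 HFCF comparisons. Over all genes tested, 13% were called higher and 9.31% lower in control males, and 21.6% and 20% in male labelled knockouts. In control females it was 16.9% and 13.8% against HF and 18.4% and 16.8% against LF, and in female labelled knockouts 8.44% and 6.01% against HF and 8.26% and 3.74% against LF. Hepatocyte markers were called lower for 7 of 8 in male labelled knockouts, 4 of 8 in male controls, 5 of 8 in control females against HF and 7 of 8 against LF. In female labelled knockouts 3 of 8 were lower against LF and 0 of 8 against HF. Macrophage markers were called higher for 4 of 6 in 5 of these comparisons and for 1 of 6 in female labelled knockouts against HF, and 1 of 6 was lower in male labelled knockouts, where all 3 blood markers were lower too. Stellate cell markers were called in all 6, with 2 to 4 of 6 higher, and 1 lower in both male comparisons and in control females against HF. Endothelial markers were called higher for 4 of 5 in control females against HF, 3 of 5 against LF (1 lower), and 1 of 5 in both labelled knockout comparisons with HF. The fat cell marker Fabp4, which macrophages and endothelium also express, was higher in 4 comparisons, by 1.71 (SE 0.40, edgeR adjusted p = 0.00904) in control females against LF. Adrb3, another fat cell marker, was lower there (-1.12, SE 0.20, edgeR adjusted p = 0.00261). Of 3 fat cell markers tested, 1 was also called lower in female labelled knockouts against LF. Summed bile duct marker levels were 12.5 to 21.6 CPM in HF and 16.9 to 69.8 CPM in HFCF control males. Their part in the changes of Cidec, Clstn3 and Cideb was not tested.

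Whether the HFCF response differed between the sexes was tested as male change minus female change. In controls the difference was -1.30 (SE 0.50, edgeR adjusted p = 0.235) for Cidec and -1.13 (SE 0.32, adjusted p = 0.178) for Clstn3. For Cideb it was 0.30 (SE 0.17, adjusted p = 0.363). Cidea passed the filter through the male libraries, and nothing is read from its value, which ran from -4.50 to -0.79 as single libraries were left out. Only 0.00646% of 15491 genes, a single gene, was called. Without HF control female replicate 1, Cidec was at -2.40 (adjusted p = 1.8e-05) and Clstn3 at -1.54 (adjusted p = 0.00164), so that 1 library sets whether a difference between the sexes is called. In labelled knockouts, with 0.013% of 15400 genes called, the difference was 0.66 (SE 0.50, adjusted p = 0.635) for Cidec, 0.06 (SE 0.26, adjusted p = 0.953) for Clstn3 and -0.25 (SE 0.12, adjusted p = 0.431) for Cideb.

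Other proteins of the droplet were followed by lists. These lists, and those of partners and regulators below, were chosen with earlier results of these data known. Their counts and p-values are therefore not independent support for the choice. Perilipins coat droplets and guard the stored fat, and all 4 listed (Plin2 to Plin5) were called lower in HF labelled knockout males, beside 9.88% of all genes tested. Plin4 had the lowest p, at log2 -3.90 (SE 0.19, edgeR adjusted p = 2.96e-09). In HFCF males, with 1.27% of all genes lower, 2 of 4 were lower, again led by Plin4 (-2.89, SE 0.15, adjusted p = 1.08e-07), and none was called between the genotypes in any female diet. The perilipin median was -0.63 in HF and -0.33 in HFCF males, beside 0.00 and -0.01 over all genes tested.

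Genes of droplet formation, which make or package triglyceride at the endoplasmic reticulum, moved in part. Of 10, 4 were lower and 1 higher in HF labelled knockout males, beside 9.88% and 8.57% of all genes. Among those lower were Fitm1, a triglyceride-binding protein of droplet budding (-1.19, SE 0.11, edgeR adjusted p = 2.81e-06), and Mogat1, which makes diglyceride (-2.79, SE 0.33, adjusted p = 4.58e-05). In HFCF males 3 were lower, beside 1.27% of all genes, Fitm1 among them (-1.30, SE 0.17, adjusted p = 0.000925). In HFCF females, where 0.0534% of all genes were called, 1 was lower, Mogat1 (-1.64, SE 0.24, adjusted p = 0.0494). Between diets, Fitm1 (1.95, SE 0.32, adjusted p = 0.0322) and Plin4 (1.78, SE 0.31, adjusted p = 0.0417) rose in control females from LF to HF, the step at which none of the CIDE genes was called.

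From LF to HFCF in control females, 2 of 4 perilipins rose and 1 fell, beside 18.4% and 16.8% of all genes. Plin4 rose by 2.38 (SE 0.20, edgeR adjusted p = 0.000213) and Mogat1 by 2.81 (SE 0.40, adjusted p = 0.00111). In male labelled knockouts 2 of 4 perilipins rose from HF to HFCF, where 21.6% of all genes were called higher and 20% lower. Dgat2, a triglyceride synthase, fell there by 0.62 (SE 0.10, adjusted p = 0.000152). Dgat2 was also lower on HFCF in control males (-0.54, SE 0.09, adjusted p = 0.00203) and in control females against HF (-0.77, SE 0.12, adjusted p = 0.00561).

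Known partners of the CIDE proteins were called in some comparisons. Of 9 tested, 3 were lower in HF and 1 in HFCF labelled knockout males, beside 9.88% and 1.27% of all genes. Among the 9 were Rab8a, which acts with Cidec in fusion, and Abhd5 and Pnpla2, which take part in fatty acid release. Between HF and HFCF, 4 of the 9 were called in male labelled knockouts (41.7% of all genes), 3 in male controls (22.3%) and 2 in control females (30.8%). From LF to HFCF, 4 were called in control females (35.2%) and 2 in labelled knockouts (12%), and edgeR called none in the other 3 diet comparisons. Droplet lipolysis genes had 2 of 6 lower in HF labelled knockout males (9.88% of all genes) and 0 of 6 in HFCF males.

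Of 13 transcription factors and cofactors known to act on CIDE genes, 2 to 7 were called lower and at most 1 higher in each HFCF comparison. In male controls 6 fell, beside 9.31% of all genes, with Ppara at -0.54 (SE 0.09, edgeR adjusted p = 0.00183), and in male labelled knockouts 6 fell, beside 20%, with Creb3l3 at -0.36 (SE 0.05, adjusted p = 0.000116) and Cebpa at -0.43 (SE 0.08, adjusted p = 0.000391). In control females 5 fell against HF, beside 13.8%, with Creb3l3 at -0.51 (SE 0.10, adjusted p = 0.00778). Against LF 7 fell, beside 16.8%, with Mlxipl at -1.03 (SE 0.14, adjusted p = 0.00088), and Pparg was the 1 that rose. Female labelled knockouts had 2 lower against HF, beside 6.01%, Rxra among them (-0.61, SE 0.12, adjusted p = 0.0118). Against LF 2 were lower, beside 3.74%, and Pparg was the 1 that was higher (1.60, SE 0.23, adjusted p = 0.00276).

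Over the 10 group means of log2 CPM, Cidec and Clstn3 were each other's closest gene among 12307 compared (Pearson r = 0.980). This is a description over groups that share sexes, diets and genotypes. The levels over these groups were also known when Cidec and Clstn3 were chosen. Their place among the genes compared is therefore not independent support for a link between them. After Clstn3, Cidec was nearest to Rps6ka1 (r = 0.980) and Sdcbp2 (r = 0.978), and Clstn3 to Atp9a and Ermp1 (both r = 0.972). Cidea was nearest to Zfp655 and Limk1 (both r = 0.956) and Cfd (r = 0.942), with Cidec at place 34 (r = 0.903). Cideb was nearest to Higd1a (r = 0.964), Mob4 (r = 0.963) and Yipf1 (r = 0.954), and had r = -0.551 with Cidec. Pparg counts had r = 0.273 with Cidec, 0.346 with Clstn3 and 0.446 with Cidea over the same 10 means.

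Within groups the picture differed. After each group mean was subtracted, 10 relations over the 48 libraries were tested with 100000 shuffles within groups. Clstn3 and Pparg varied together most clearly (r = 0.577, permutation p = 0.00023, adjusted p = 0.0023; rho = 0.524, p = 0.00124, adjusted p = 0.0124). Without the 2 libraries farthest from the median, r was 0.480 (adjusted p = 0.0332; rho adjusted p = 0.0982). By sex r was 0.362 in the 24 males (adjusted p = 0.186) and 0.734 in the 24 females (adjusted p = 0.0125).

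Cidec and Clstn3, closest over group means, had a within-group r of 0.413 (permutation p = 0.0263, adjusted p = 0.0527; rho = 0.316, p = 0.0604). It was -0.135 in males (adjusted p = 0.581) and 0.574 in females (adjusted p = 0.0427). Without the 2 farthest libraries, HF control female replicate 1 and HFCF labelled knockout female replicate 1, it was 0.155 (adjusted p = 0.52), so the relation rests on these libraries.

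Cidec and Pparg had r = 0.347 (permutation p = 0.0131, adjusted p = 0.0329; rho = 0.307, p = 0.0545) and 0.291 without the 2 farthest libraries (adjusted p = 0.141). Cidea and Cidec had r = 0.607 (p = 0.00283, adjusted p = 0.0141; rho = 0.433, p = 0.0107), and 0.410 without the 2 farthest (adjusted p = 0.141). Cidea and Pparg had r = 0.423 (p = 0.00705, adjusted p = 0.0235; rho = 0.386, p = 0.0145), and 0.259 without them (adjusted p = 0.259). None of these 3 relations kept an adjusted p under 0.05 without those libraries, and Cidea rests on few or no reads in 8 of the 10 groups. The other 5 relations, all with Cideb or between Cidea and Clstn3, had adjusted p of 0.155 to 0.789.

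**Figure D4:**
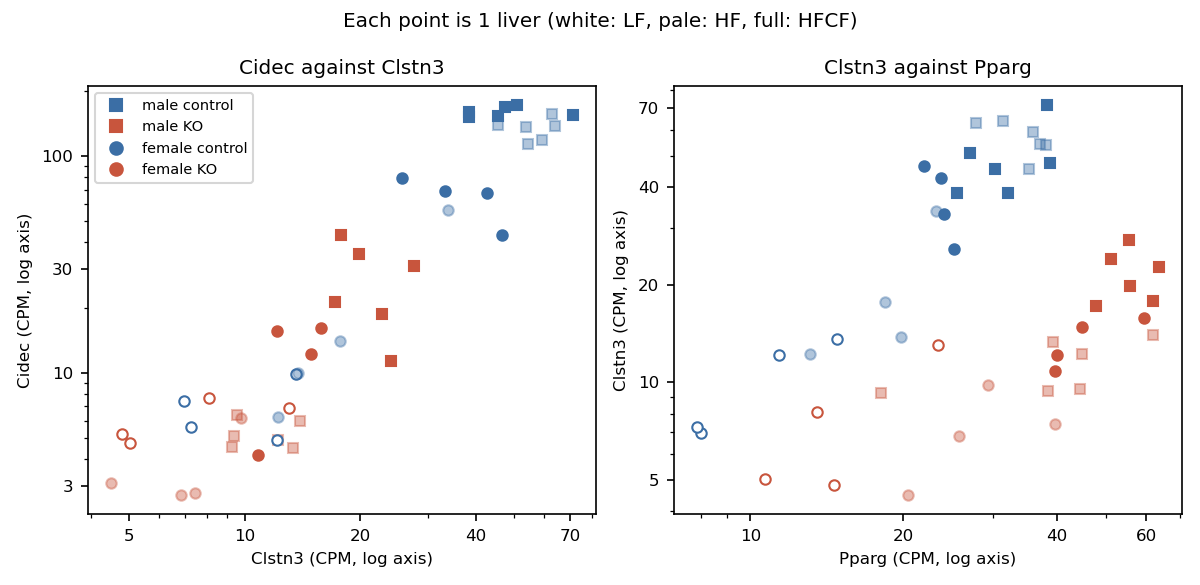
Cidec against Clstn3, and Clstn3 against Pparg, in CPM on log axes; each point is 1 liver (squares male, circles female; blue control, red labelled knockout; white LF, pale HF, full HFCF). In the left panel the groups line up along a single trend, and in the right panel labelled knockout groups have on average more Pparg counts and less Clstn3 than controls of the same sex and diet.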

How the data were processed

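RNA-seq of 48 mouse livers was analysed from the deposited tables. Per the submitters' processing notes, STAR 2.6.1, HTSeq 0.6.1, DESeq2 and the GRCm38/mm10 build were used, and the annotation release is not given in the sources used here. Per the labels' protocols, libraries were not strand specific. The authors deposited 11 tables, 1 per comparison, with whole-number read counts and FPKM per library. The counts were used, and the deposited FPKM values and gene lengths served for checks and for levels per kb. The tables list genes with at least 2 reads summed, and were joined into 29221 genes, a missing gene counting as 0 (0 of 1341082 repeated values differed, and 0 columns lacked a sample). The members and gene lists were chosen with earlier results of these data known. Because mice are not tied to litters or cages in the labels, p-values measure the spread between these livers.

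CPM was computed from library sizes scaled by trimmed means of M-values (TMM) with edgeR 4.0.16 in R 4.3.3. Each comparison was fitted to its groups alone with edgeR's quasi-likelihood F test after filterByExpr, with Benjamini-Hochberg adjustment over all genes tested, and a call is an adjusted p under 0.05. The limit printed for a count of 0 is that of 3 reads and covers counting error only. The method was tested on simulated data. No libraries of 1 group agreed within sampling noise (chi-square per degree of freedom of 5.81 or more over 96 pairs). Genes were named as members, overlapping genes, at most the 3 called list genes of lowest p per comparison, and the 3 genes most like each member over group means. Cell type lists for pancreas and muscle had at most 2 genes in the tables and 0 tested. DESeq2 1.42.0, its size factors, other filters, wider fits, a replicate block and leaving out each library were tried as alternatives. Within-group correlations used log2 CPM with a prior count of 0.5 (numpy 2.4.6, Python 3.11.15). Promoters were scanned on both strands. Replicate numbers did not pair the livers.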

Additional observations from a re-analysis of the deposited data

Results flagged for a closer look

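In 40 combinations of gene and group, the gap between an extreme library and its neighbour was compared with the group's whole range, and 5 stood out. Chance alone flags about 1 in 20 such groups where values are normally distributed. That rate does not apply to Cidea groups with only 0 or 1 read per library. Cidec in HF control female replicate 1 was 56.4 CPM, on 978 reads, while the next library of its group had 14.1 CPM. The same liver had 0.692 CPM of Cidea, on 12 reads, against 0.0623 CPM or less in the other 3, and the highest Clstn3 (33.8 CPM) and Pparg (23.2 CPM) of its group. Its total of 17383722 reads lay within the range of the group. Its summed hepatocyte markers were the lowest of the group, at 94311.3 CPM against 104154 to 113874 CPM in the others. The part of this in its levels was not tested. Cidec in HF labelled knockout female replicate 2 was 6.18 CPM, against 3.09 CPM in the next. The other 2 rest on single reads of Cidea: LF labelled knockout female replicate 3 was at 0 CPM where the others had 1 read each, and HF labelled knockout female replicate 1 was at 0.0538 CPM where the others had none.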

How the results depend on the processing

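Under the alternatives other than leaving out a library, 139 values of the diet changes and all 40 of the differences between the sexes kept their direction and side of the threshold, and all 100 genotype differences, which have no test, moved by less than the spread between replicates. The exceptions were these. With all groups of a sex in 1 fit, Cidec between HF and HFCF was at 1.59 (adjusted p = 0.0161) in control females and 0.28 (adjusted p = 0.271) in control males, and Clstn3 in female labelled knockouts at 0.92 (adjusted p = 0.0582). Without a filter on low counts, Cidec in control females from HF to HFCF was at 1.57 (adjusted p = 0.0491), and in female labelled knockouts from LF to HFCF Cidec was at 0.96 (adjusted p = 0.0179) and Clstn3 at 0.77 (adjusted p = 0.0336). In that last comparison DESeq2's Wald test gave 0.99 (adjusted p = 0.0348) and 0.80 (adjusted p = 0.0491), and a minimum of 10 counts put Cideb at 0.0077 (adjusted p = 0.981). DESeq2 gave no adjusted p for Cidec in the difference between the sexes in controls. The cause of these shifts was not tested.

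The replicate numbers do not pair the livers: in no comparison did all same-numbered pairs correlate above 0.1, and in none did every library correlate best with its own number. A replicate block put Cideb at -0.49 (adjusted p = 0.0734) and Clstn3 at 1.0 (adjusted p = 0.0719) in control females from HF to HFCF, where the genes called went from 4526 to 0, and changed no other call. It called 2340 genes in place of 2591 between genotypes in HF males and 2036 in place of 5199 from LF to HFCF in control females. DESeq2 called 648 genes in place of 99 from LF to HF in control females, 501 in place of 22 in labelled knockouts, 719 in place of 324 between genotypes in HFCF males and 81 in place of 8 in HFCF females. For the difference between the sexes it called 137 in place of 1 in controls and 161 in place of 2 in labelled knockouts.

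Among within-group correlations, those of Cidea with Cidec (0.410), Cidea with Pparg (0.259) and Cidec with Pparg (0.291) lost the threshold without the 2 farthest libraries, Cideb with Cidec turned from -0.153 to 0.0219, and Cidec with Clstn3 passed with DESeq2 size factors (0.420, adjusted p = 0.0494).

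Leaving out each library in turn, the log2 change from LF to HF in control females ran from 0.55 to 1.96 for Cidec and 0.55 to 1.15 for Clstn3. From HF to HFCF in control females it ran from 1.27 to 2.69 for Cidec and 0.77 to 1.36 for Clstn3. In female labelled knockouts it ran from 1.56 to 2.08 for Cidec, 0.74 to 1.09 for Clstn3 and -0.18 to 0.0027 for Cideb. From LF to HFCF it ran from -0.40 to -0.22 for Cideb in control females, and in labelled knockouts from 0.86 to 1.28 for Cidec, 0.61 to 1.19 for Clstn3 and -0.15 to 0.062 for Cideb. From LF to HF in labelled knockouts it ran from -0.037 to 0.11 for Cideb and -0.30 to 0.27 for Clstn3. In control males it ran from -0.15 to 0.14 for Cidea, -0.31 to -0.16 for Cideb and -0.33 to -0.14 for Clstn3. The genotype difference of Cidec in HF females ran from -2.92 to -1.45. The difference between the sexes ran from -2.40 to -0.99 for Cidec and -1.54 to -0.97 for Clstn3 in controls, and from -0.15 to 0.19 for Clstn3 in labelled knockouts. Depth limits Cidea, whose 8 libraries without a read allow up to 0.189 CPM.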
